A study of Brassica napus with 12 samples.

Results

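Root tips of 2 spring oilseed rape varieties, Drakkar and Duplo, were compared at the warm temperature of 29 °C. The comparison takes 6 of the 12 libraries of the study, 3 biological replicates of each variety, and all 101038 gene identifiers of the count tables. Seeds were germinated for 3 days, and the seedlings were then kept for 7 days on a pouch-and-wick system, in which roots grow along wet paper, at a constant 29 °C. The remaining 6 libraries, 3 of each variety, came from seedlings kept in the same way at 21 °C, and they are used here only beside the warm comparison. Both varieties are wild-type cultivars without a transgene, and temperature was the only treatment. Each replicate combined 18 seedlings of 3 experimental units, so that no value belongs to a single plant. The root tips are given as 0.5 cm long in the paper's methods and as 1 cm in the sample labels. The p-values below measure the spread between these pooled replicates.

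*Brassica napus* carries an A and a C subgenome from its 2 parent species, and most genes are present as near-identical copies on matching A and C chromosomes, called homoeologues. Warmth activates heat-shock factors, which switch on genes for chaperones. Small heat-shock proteins hold unfolding proteins in solution, HSP70 and HSP90 proteins refold them, and HSP101 pulls aggregates apart. In roots, warm temperatures also change growth through cell wall, hormone and nutrient genes. The varieties can differ in any of these through the level of a transcript, through a sequence that departs from the reference genome, or through the presence or absence of a gene copy. Read counts on one reference genome cannot tell these apart.

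Levels are given in CPM, the counts of a gene per 1000000 counts of its library after the 6 libraries at 29 °C were scaled with TMM factors, and they are compared only within a gene. Fold changes are log2 values of Duplo minus Drakkar, so that negative values mean higher levels in Drakkar. Differentially expressed genes (DEGs) have an adjusted p-value under 0.05 in edgeR's quasi-likelihood test and an absolute log2 fold change above 1. Gene names and Arabidopsis counterparts were at hand for 2402 identifiers, nearly all of them loci that the study had listed for their response to temperature in these libraries. A list of such loci is therefore not independent evidence of a response to warmth, and the other identifiers are given without a name. Positions are the chromosome and the order in the identifiers, since the files give no coordinates. Of 22 markers of root meristem, root cap, root hair, xylem and shoot, 1 locus could be matched, so the tissue could not be checked.

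Depth was similar across the 6 libraries, from 26554987 to 31701607 reads counted on genes, and between 50688 and 52819 genes had at least 10 reads. In a principal component analysis the first component held 64.5% of the variance and separated the varieties. The second component, with 21.2%, set Duplo replicate 3 at -113 against a range from -23.1 to 53 in the other 5 libraries. The third component, with 8.01%, set Drakkar replicate 2 at -69.5 against a range from -6.39 to 33.3. These 2 libraries stand apart within their groups, and results that rest on them are given with and without them.

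Of 53283 genes tested, 5930 (11.1%) were DEGs between the varieties at 29 °C. Transcripts were higher in Drakkar for 3174 genes (5.96% of those tested) and higher in Duplo for 2756 (5.17%). This puts 53.5% of the DEGs on the Drakkar side (Wilson 95% interval from 52.3% to 54.8%). The interval treats the genes as independent, although neighbouring genes differed together, as described below. An adjusted p-value under 0.05 irrespective of the fold was found for 7859 genes (14.7%). The median absolute log2 fold change of the DEGs was 2.30, and 2383 of them had a value above 3. The 3 libraries of a variety lay entirely above those of the other for 99.9% of the DEGs and for 30.9% of all genes tested. The number of DEGs rose to 8174 without Duplo replicate 3 and lay between 4796 and 5796 without any one of the others. Without Duplo replicate 3, 60.1% of the DEGs were higher in Drakkar. With at least 10 reads required in every library, 49.9% were. These shares lie outside the Wilson interval, which therefore does not settle whether more DEGs were higher in Drakkar.

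**Figure D1:**
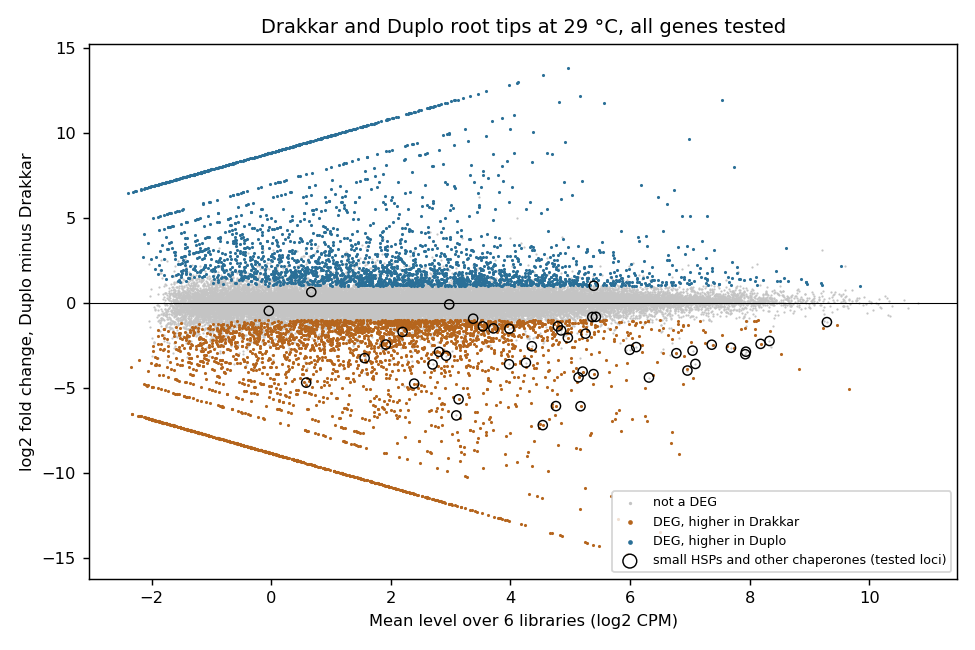
Log2 fold change of Duplo minus Drakkar at 29 °C (y axis) against the mean level over the 6 libraries in log2 CPM (x axis) for the 53283 genes tested, with DEGs coloured by direction and tested loci of the 2 chaperone lists circled. The 3174 DEGs higher in Drakkar and the 2756 higher in Duplo reach log2 fold changes of -14.80 and 13.80; points along the outer lines are genes with no reads in a variety, whose fitted fold change is set by the test's prior count.

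Heat-shock genes were at high levels in 2 of the 3 Drakkar libraries at 29 °C. Of 18 tested loci for small heat-shock proteins, 5 were DEGs and all 5 were higher in Drakkar. Of 29 tested loci for other chaperones and heat tolerance proteins, 7 were DEGs and all 7 were higher in Drakkar. Together 25.5% of the tested loci of the 2 lists were DEGs, against 11.1% of all genes. Their median log2 fold changes were -3.04 and -2.41, whereas that of all genes tested was 0.02. An unadjusted p-value under 0.05 was found for 41 of these 47 loci and for 25.6% of all genes. All but 2 of the 50 loci of the 2 lists belong to the genes that the study grouped as its Cluster 2 by their temperature response. The paper describes this cluster as strongly induced by warmth in Drakkar, and as more weakly induced or repressed in Duplo. The cluster was formed on these same libraries. The share of DEGs in the 2 lists and their direction are therefore not independent evidence of a difference between the varieties.

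The study itself also measured some of these loci by quantitative PCR, with a primer pair for each, on RNA collected separately from the sequenced replicates. The differences between the varieties come from read counts per gene identifier, and the primer pairs played no part in them. The primers are written 5′ to 3′ as forward and reverse primer, in lower case throughout since no motif in them was searched.
*HSP17.6II* BnaC03g05240D forward: aatcctcgaagacatgctaga
*HSP17.6II* BnaC03g05240D reverse: ccaggcatgtccaccacgaa
*HSP23.6-MITO* BnaA01g14560D forward: cgatcccttttcaccgacga
*HSP23.6-MITO* BnaA01g14560D reverse: cgactagccgacaacagagg
*GolS1* BnaA04g26930D forward: ccagtggccgaaggaagag
*GolS1* BnaA04g26930D reverse: aacatcccggcgttgaagtaa
*HSA32* BnaC07g36650D forward: acgttacggtccaaatgtga
*HSA32* BnaC07g36650D reverse: gtaggaggaactgagaacggac

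Summed over the 21 loci of small heat-shock proteins, Drakkar replicates 1 and 3 held 1925.5 and 2313.6 CPM and Drakkar replicate 2 held 161.9 CPM, while the Duplo libraries held 132.9, 195.7 and 214.1 CPM. Drakkar replicate 2 thus lay inside the Duplo range. Over the 29 loci of other chaperones the Drakkar libraries held 5910.4, 948.0 and 5854.1 CPM and the Duplo libraries 825.2, 1152.0 and 1092.8 CPM. Relative to the Duplo mean, the summed level of the 50 loci was 6.51-fold and 6.78-fold in Drakkar replicates 1 and 3 and 0.922-fold in replicate 2. Drakkar replicates 1 and 3 both exceeded every Duplo library for 46 of the 50 loci, and Drakkar replicate 2 was below the highest Duplo library for 39. Without Drakkar replicate 2, 43 of 50 loci were DEGs, against 10.6% of all genes in that fit. With all 6 libraries DESeq2 called 38 of the 47 tested, against 12.1% of all genes. When a different library was left out, the small heat-shock proteins had between 0 and 4 DEGs and the other chaperones between 0 and 6. The share among all genes in these fits lay between 8.84% and 15.1%.

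**Figure D2:**
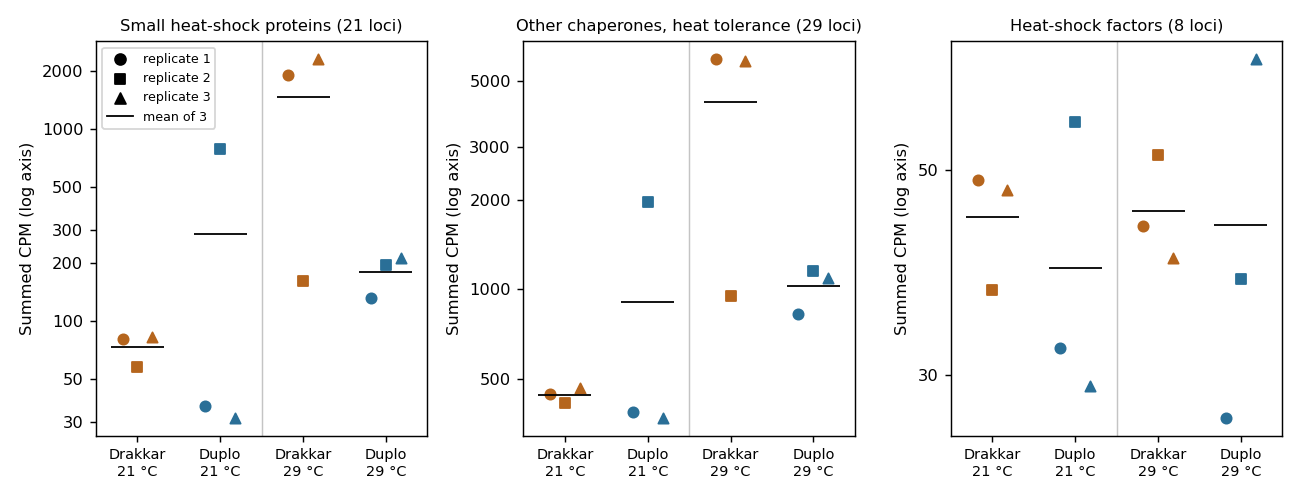
Summed CPM (log axis) of the loci for small heat-shock proteins, other chaperones and heat tolerance proteins, and heat-shock factors in each library, with symbols for replicates and bars for the mean of 3. At 29 °C Drakkar replicates 1 and 3 lie at 1925.5 and 2313.6 CPM for small heat-shock proteins, and Drakkar replicate 2 lies at 161.9 CPM among the Duplo libraries; the 21 °C libraries are scaled separately.

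*HSP17.6II* encodes a class II small heat-shock protein of the cytosol. The copy BnaC03g05240D had 49.9, 0.279 and 88.6 CPM in the Drakkar libraries and 0.131, 0.351 and 0.468 CPM in the Duplo libraries. Its log2 fold change was -7.19 (with a standard error, SE, of 1.80 and an edgeR adjusted p = 0.0406), and Drakkar replicate 2 overlapped with Duplo. This copy lies in a stretch of C03, described below, where 84.3% of the tested genes were DEGs higher in Drakkar. Its fold change cannot be separated from that of the stretch. The copies BnaA10g20610D (log2 fold change -6.08, SE 1.61) and BnaC02g04180D (-6.07, SE 1.55) showed the same order of libraries and were DEGs. The copies BnaA03g03740D (-4.39, adjusted p = 0.0820) and BnaC09g44630D (-6.62, adjusted p = 0.0532) did not pass the test. BnaA03g03740D lies in a stretch of A03, described below, whose genes were mostly higher in Duplo. Summed over the 5 copies, the Drakkar libraries held 436.5, 7.38 and 574.5 CPM and the Duplo libraries 2.59, 10.8 and 15.3 CPM, and the sum did not pass the test (adjusted p = 0.0626).

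*HSP23.6-MITO*, a small heat-shock protein of mitochondria, had 254.7, 35.3 and 291.6 CPM at BnaA01g14560D in Drakkar and 19.7, 27 and 28.2 CPM in Duplo. Here all 3 Drakkar libraries exceeded the Duplo libraries, and the log2 fold change was -2.96 (SE 0.72, adjusted p = 0.0356). The cytosolic class I gene *HSP17.6B* had a log2 fold change of -4.19 at BnaA04g28570D (SE 1.07, adjusted p = 0.0436), with 95.9, 5.22 and 136.9 CPM in Drakkar and 3.18, 3.47 and 6.4 CPM in Duplo. The other copies of *HSP17.6B* did not pass the test.

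Among the other heat genes, *GolS1*, for the enzyme that makes galactinol for the synthesis of raffinose sugars, had 3 DEGs among its 4 copies. The copy BnaC04g00330D held 113.5, 10.8 and 77.3 CPM in Drakkar and 2.29, 2.77 and 4.6 CPM in Duplo, without overlap. Its log2 fold change was -4.38 (SE 0.85, adjusted p = 0.0144). BnaA04g26930D and BnaC04g51460D had log2 fold changes of -5.67 and -4.75. *HSA32*, which in Arabidopsis extends the memory of an earlier heat treatment, had 17.7, 3.13 and 15.9 CPM at BnaC07g36650D in Drakkar and 1.05, 1.44 and 2.52 CPM in Duplo, with a log2 fold change of -2.88 (SE 0.68, adjusted p = 0.0317). The HSP90 cochaperone gene *P23-1* was a DEG at both of its loci, BnaA09g30420D (log2 fold change -4.04) and BnaC05g17990D (-2.05). *HSP81-2*, for an HSP90 protein of the cytosol, held 643.8, 119.3 and 704.8 CPM at BnaA02g08820D in Drakkar and 86.7, 112.3 and 76.9 CPM in Duplo (log2 fold change -2.41, adjusted p = 0.0442). The HSP70 loci had large differences that did not pass the test, such as BnaA01g30490D with 578.2, 47.8 and 440.0 CPM in Drakkar and 36.6, 73.8 and 61.3 CPM in Duplo (log2 fold change -2.64, SE 0.82, adjusted p = 0.0856). Of 5 chaperonin loci, 2 (40%, against 11.1% of all genes) were DEGs higher in Drakkar. They were the *CPN60B* locus BnaA03g32840D with -2.19 and the *CPN60BETA2* locus BnaC03g37980D with -2.01. All 5 chaperonin loci belong to Cluster 2, so that their share and direction are not independent evidence. The chaperonins had 4 DEGs without Drakkar replicate 2, and 0 with any other library left out or with the replicate number as a block.

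Of the 12 DEGs of the 2 lists, *GolS1* BnaC04g00330D was a DEG in 4 of the 6 fits that leave out a library, and the other 11 in 1 or 2 of them. The list of heat-shock factors held 4 loci of *HSFB2B*, 2 of *HSF4* and 2 of *HSFA4A*, so that other factors of the family were not examined. Of these 8 loci, 0 were DEGs with edgeR or DESeq2, and 0 had an unadjusted p-value under 0.05. At the 11.1% of all genes a list of this length need hold no DEG, and without Duplo replicate 3 it held 1. Their summed level was 43.5, 51.9 and 40.2 CPM in Drakkar and 27, 38.1 and 65.9 CPM in Duplo. The 4 loci of the class B factor *HSFB2B*, a repressor-type factor in Arabidopsis, had log2 fold changes between -0.20 and 0.80. The 2 loci of *HSF4* had -0.34 and 0.58.

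*ROF2*, for a peptidyl-prolyl isomerase that binds HSP90, held 345.3, 15.3 and 341.3 CPM at BnaC07g26590D in Drakkar and 9.24, 13.5 and 21.6 CPM in Duplo, and missed the threshold (log2 fold change -3.98, SE 1.06, adjusted p = 0.0504), whereas the sum of both *ROF2* copies passed it (-3.77, adjusted p = 0.0496). The small heat-shock gene *HSP15.7* at BnaAnng17140D had -3.11 (adjusted p = 0.0948). The mitochondrial HSP70 gene *mtHsc70-1* was the other way round, with 34.8, 13.9 and 34.9 CPM at BnaA02g00030D in Drakkar and 54.4, 64.3 and 49.9 CPM in Duplo, and its log2 fold change of 1.01 did not pass the test either (adjusted p = 0.114).

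The lists of cell wall, ethylene and abscisic acid genes held 1 DEG of 8 tested loci (12.5%), 2 of 7 (28.6%) and 1 of 7 (14.3%) at 29 °C, against 11.1% of all genes, so that with so few loci only the single genes are described. Without Duplo replicate 3 the cell wall list had 3 DEGs of 9. Among the loci of cell wall loosening, *XTH24*, for an enzyme that cuts and rejoins xyloglucan chains, was the only DEG. It held 22.1, 6.3 and 18.9 CPM at BnaC07g42500D in Drakkar and 2.95, 1.83 and 3.24 CPM in Duplo, so that the groups did not overlap (log2 fold change -2.56, SE 0.49, adjusted p = 0.0134). *EXPA8*, for an expansin, had a log2 fold change of -0.02 at BnaA05g01790D with overlapping groups. In the ethylene list 2 of 7 loci were DEGs, both of them *ACO1*, for the oxidase of the last step of ethylene synthesis. The copy BnaCnng67880D held 10.4, 19.2 and 5.08 CPM in Drakkar and 116.0, 44.5 and 120.1 CPM in Duplo (log2 fold change 3.01, SE 0.58, adjusted p = 0.0141). The copy BnaCnng33000D had a log2 fold change of 1.37 (SE 0.34, adjusted p = 0.0414). The sum of the 4 *ACO1* copies did not pass the test (log2 fold change 1.20, adjusted p = 0.0671).

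In the abscisic acid list the DEG was the receptor gene *RCAR1* (BnaA10g00540D), with 5.79, 6.16 and 4.4 CPM in Drakkar and 2.26, 2.11 and 3.2 CPM in Duplo (log2 fold change -1.11, adjusted p = 0.0202). The receptor gene *PYL5* had an adjusted p-value of 0.0305 at BnaA10g24990D, but its log2 fold change of -0.66 was under the threshold, and *PYL4* had 0.08 at BnaC03g21240D. *STE1*, for a desaturase of sterol synthesis upstream of brassinosteroids, had 8.42, 8.74 and 6.54 CPM at BnaC03g33040D in Drakkar and 26.7, 13.1 and 23.4 CPM in Duplo (log2 fold change 1.42, SE 0.28, adjusted p = 0.0155). *GA2ox2*, for an enzyme that inactivates gibberellins, was a DEG at low levels, with 0.316, 0.348 and 0.358 CPM at BnaA07g07480D in Drakkar and 0.82, 0.664 and 1.69 CPM in Duplo (log2 fold change 1.62, adjusted p = 0.0473). It was not a DEG when any of the 6 libraries was left out, whereas *XTH24* and *ACO1* BnaCnng67880D were DEGs in 5 of these 6 fits, and *STE1*, *RCAR1* and *ACO1* BnaCnng33000D in 2. The sucrose transporter gene *SUC7* had an adjusted p-value of 0.039 at BnaC06g32880D and a log2 fold change of 0.96, under the threshold.

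The remaining loci of the primer table did not pass the test. *CKX1*, for a cytokinin oxidase, had 2.09, 0.696 and 0.751 CPM at BnaC04g01930D in Drakkar and 0.393, 0.351 and 0.216 CPM in Duplo, without overlap, but with an adjusted p-value of 0.0665. *SAM1*, for an enzyme that makes the precursor of ethylene, had 9.97, 25.8 and 14.3 CPM at BnaC04g00410D in Drakkar and 0.295, 1.01 and 20.6 CPM in Duplo, so that Duplo replicate 3 alone lay inside the Drakkar range. The xyloglucan enzyme gene *XTR6* at BnaA01g15000D had between 21.4 and 23.5 CPM in Drakkar and 8.29, 8.35 and 46.6 CPM in Duplo. The log2 fold changes were -0.57 for the splicing factor gene *SR30* (BnaA06g37780D), 0.35 for the xylosidase gene *XYL4* (BnaC09g06400D), 0.07 for the splicing factor gene *SCL33* (BnaA06g00410D) and -0.35 for the homeobox gene *HB3* (BnaC03g18850D). The 2 loci of *HB-3* had 0.79 (BnaA10g18950D) and 0.89 (BnaC05g20010D). *CAT3*, *PRX71* and *NIA1* had too few reads at their primer loci to be tested. The catalase locus *CAT3* BnaC08g19360D held 0.886, 0.348 and 1.11 CPM in Drakkar and 0, 0 and 0.0719 CPM in Duplo. The actin gene *ACT7* (BnaC02g00690D), used in the study as a reference, had a log2 fold change of 0.05 (SE 0.17).

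None of the tested loci of the cytokinin (8), nitrate (16) and peroxide (20) lists was a DEG, and each list had 1 locus with an unadjusted p-value under 0.05. DESeq2 gave 1, 1 and 0 DEGs. The peroxide loci summed to 584.5, 321.3 and 638.6 CPM in Drakkar and to 136.2, 207.6 and 875.1 CPM in Duplo, so that replicate 3 exceeded all Drakkar libraries while the other Duplo libraries were below them. *KMD1*, for an F-box protein that in Arabidopsis marks cytokinin response regulators for breakdown, held 1.46, 2.86 and 3.72 CPM at BnaA07g35640D in Drakkar and 0.0656, 0.312 and 34 CPM in Duplo. Its log2 fold change turned from 2.10 to -3.85 without Duplo replicate 3 (adjusted p = 0.00948). Without that library 5 of 9 cytokinin loci and 9 of 22 peroxide loci were DEGs, all higher in Drakkar, and 6 of 16 nitrate loci were DEGs, 4 of them higher in Drakkar. The share among all genes in that fit was 15.1%. Cluster 2 holds 5 of the 9 cytokinin, 10 of the 23 peroxide and 3 of the 17 nitrate loci, so that these shares are not independent evidence either.

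The glutathione transferase and metallothionein list had 2 DEGs of 24 loci (8.33%, against 11.1% of all genes), both of them *MT2A* copies higher in Drakkar. It had 10 without Duplo replicate 3 (41.7%, against 15.1% of all genes) and 5 without Drakkar replicate 2 (20.8%, against 10.6% of all genes). Of the 24 loci 17 belong to Cluster 2, so that these shares are not independent evidence. The *GSTF3* copy BnaCnng19060D had 48.6, 37.1 and 61.6 CPM in Drakkar and 0.197, 0.429 and 129.4 CPM in Duplo. For nitrate, Drakkar replicate 2 and Duplo replicate 3 were both high. The list summed to 287.1, 933.8 and 332.3 CPM in Drakkar and to 335.9, 398.8 and 877.9 CPM in Duplo. The nitrate transporter gene *NRT2.1* had 0.0633, 1.25 and 0.179 CPM at BnaA06g04570D in Drakkar and 14.9, 3.9 and 1.55 CPM in Duplo. The groups did not overlap, but the log2 fold change of 3.77 did not pass the test (SE 1.17, adjusted p = 0.0851). Whether these libraries differ through their share of root cell types or through RNA per cell cannot be told apart in bulk tissue.

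**Figure D3:**
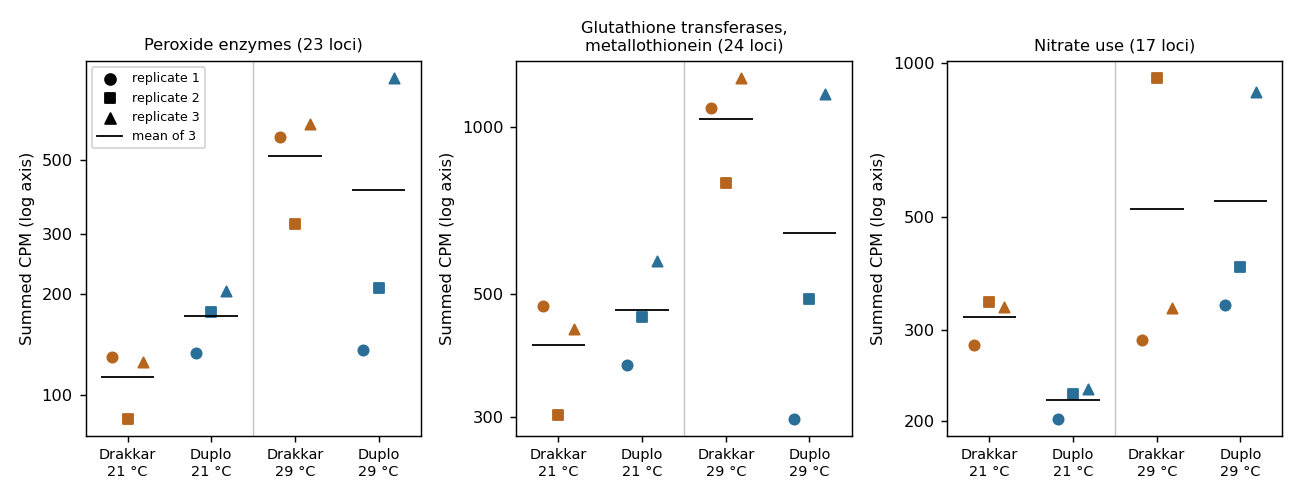
Summed CPM (log axis) of the loci for peroxide enzymes, for glutathione transferases and metallothionein, and for nitrate use in each library, with symbols for replicates and bars for the mean of 3. At 29 °C Duplo replicate 3 holds 875.1 CPM of peroxide loci against 136.2 and 207.6 CPM in the other Duplo libraries, and Drakkar replicate 2 holds 933.8 CPM of nitrate loci against 287.1 and 332.3 CPM in the other Drakkar libraries.

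The study also formed larger groups of loci by their response to temperature in these libraries, so that their direction is not independent evidence. Of the 839 tested loci of its Cluster 2, 140 were DEGs higher in Drakkar and 12 higher in Duplo (18.1% in all, against 11.1% of all genes), with a median log2 fold change of -0.88. In Cluster 3, 5 of 234 tested loci were DEGs higher in Drakkar and 48 higher in Duplo (22.6%), with a median of 0.77. Cluster 1, with 71 and 30 DEGs among 1065 loci (9.48%) and a median of -0.10, was near the share of all genes. Without Duplo replicate 3 the median of Cluster 1 was -0.82, and 274 of its loci were DEGs higher in Drakkar. Cluster 2 then had 383 DEGs higher in Drakkar and Cluster 3 had 100 higher in Duplo, while the share of DEGs among all genes was 15.1% in that fit. With another library left out, these counts lay between 83 (without Duplo replicate 2) and 206 (without Drakkar replicate 2) for Cluster 2 and between 24 (without Drakkar replicate 1) and 33 for Cluster 3.

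The DEGs with the most reads among the named loci included water channels of the PIP family on both sides. *PIP1C* (BnaA04g00710D) held 127.3, 93 and 169.9 CPM in Drakkar and 18.6, 14.6 and 19.3 CPM in Duplo, and *PIP3* (BnaC07g45370D) held 47.5, 47.4 and 44.9 CPM in Drakkar and 101.7, 142.9 and 70.2 CPM in Duplo. The log2 fold changes were -2.89 (SE 0.26, adjusted p = 0.000521) and 1.17 (SE 0.25, adjusted p = 0.0231). *CDC48C*, for an ATPase that extracts proteins for breakdown, was higher in Drakkar with 101.0, 53.1 and 88.3 CPM at BnaC03g01160D against 2.23, 2.42 and 4.14 CPM. *BIA* (BnaA01g23310D), for an acyltransferase that lowers active brassinosteroids in Arabidopsis, was higher in Drakkar (log2 fold change -1.08, SE 0.16, adjusted p = 0.00461). *GSR2*, for a cytosolic glutamine synthetase, was higher in Duplo with 153.2, 55.9 and 66 CPM at BnaCnng23850D against 12.5, 14.5 and 12 CPM. *PIP3* and *COBL2* were DEGs in 1 and 2 of the 6 fits with a library left out. *COBL2*, for a COBRA-like protein of the cell wall, was also higher in Duplo (BnaC07g25880D, log2 fold change 1.61, adjusted p = 0.0339).

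The largest differences were of genes read in a single variety. Of the named DEGs, the 10 with the most negative fold changes had at most 3 reads in each Duplo library. *ATHCYSTM1* (BnaAnng19580D), for a small cysteine-rich membrane protein, held 41.8, 27.4 and 61 CPM in Drakkar, at least 414.1-fold the level that 3 reads per library would give in Duplo. The *MT2A* copy BnaC03g00710D held 6.49, 8.6 and 8.12 CPM in Drakkar and had no reads in Duplo, at least 73.9-fold higher. Another *MT2A* copy, BnaCnng40400D, had 20.1, 31 and 21.1 CPM in Drakkar and 0.492, 1.21 and 1.26 CPM in Duplo. Summed over its 7 annotated copies, *MT2A* did not differ beyond the replicate spread (log2 fold change -0.19, SE 0.20, adjusted p = 0.628).

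*MIPS2*, for an enzyme of inositol synthesis, followed the heat-shock genes in the order of its libraries, with 28, 2.12 and 39.5 CPM at BnaA09g42760D in Drakkar. In Duplo it reached at most 0.039 CPM, so that it was at least 221.6-fold higher in Drakkar. The *FLC* copy BnaC03g04170D, one of several copies of a repressor of flowering, had 2.06, 1.88 and 2.79 CPM in Drakkar and no reads in Duplo, at least 21.4-fold higher. All 20 genes with the extreme fold changes but *SYP81* (4 of 6) were DEGs in each of the 6 fits that leave out a library. The genes were chosen on these same libraries, so the repeated calls are not independent evidence. The remaining genes on the Drakkar side were *SIS* (BnaA10g27420D), *SAP7* (BnaC03g73030D), *CYP83A1* (BnaA04g06630D), *TET15* (BnaA10g11690D) and 2 *CYP84A4* copies (BnaCnng20550D and BnaCnng20530D), at between 15.8-fold and 45-fold or more.

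On the Duplo side, the named gene with the highest fold change was *SESA1* (BnaC01g19310D), for a seed storage albumin, with 2.72, 4.18 and 1.65 CPM in Duplo and at most 0.107 CPM in Drakkar, at least 27.2-fold higher. The expansin gene *EXPA17*, which in Arabidopsis acts where lateral roots emerge, had 14.9, 14.8 and 8.13 CPM at BnaA08g27120D in Duplo and 0.285, 0.348 and 0.143 CPM in Drakkar (log2 fold change 5.58, SE 0.40, adjusted p = 0.000218). *SAC52*, for a protein of the large ribosomal subunit, held 23.1, 26.5 and 28.6 CPM at BnaC08g39710D in Duplo and between 0.522 and 0.608 CPM in Drakkar (log2 fold change 5.54, SE 0.17, adjusted p = 3.03e-05). The other 7 were *SCPL10*, *RPL16*, *PK1B*, *LACS9*, *FC2*, *SYP81* and *AAD1*, with log2 fold changes between 3.89 and 5.78. Among all genes, the extremes had no name at hand. BnaC03g57750D held between 112.3 and 146.8 CPM in Drakkar and no reads in Duplo, at least 1182.8-fold higher, and BnaA05g17000D held between 53.9 and 68.8 CPM in Duplo and no reads in Drakkar, at least 592.2-fold higher.

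With at least 10 reads in every library of a variety and at most 3 in every library of the other, 911 genes were detected in Drakkar only and 634 in Duplo only, which is 1.74% and 1.21% of the 52275 genes detected in either. No reads at all were counted in the other variety for 615 and 409 of them. Their median level in the variety that had them was 1.75 and 1.88 CPM. Such genes lay side by side in 4 runs of at least 5 detected neighbours. The longest run was of 10 genes on A10, from BnaA10g27420D (*SIS*) to BnaA10g27550D, all detected in Drakkar only. The other runs were BnaC03g04680D to BnaC03g04750D (6 genes) and BnaC03g00690D to BnaC03g00740D (5 genes, *MT2A* among them) in Drakkar, and BnaC05g47660D to BnaC05g47720D (5 genes) in Duplo. In the 21 °C libraries the same definition was met by 4 of the 10 genes on A10, 1 of the 6 and 4 of the 5 on C03, and 4 of the 5 on C05.

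Neighbouring genes also differed together over longer stretches. The 47764 tested genes with a chromosome in their identifier were put in order and divided into 947 full bins of 50 genes, a division chosen after the values were seen. The median log2 fold change of a bin lay between -0.25 and 0.25 for 887 bins, and 23 bins, in 7 blocks, had a median of at least 0.5 in size. These blocks held 2.41% of the placed genes and 10.9% of the DEGs.

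The widest block opened chromosome C03, from BnaC03g00010D to BnaC03g05780D. Of its 350 tested genes, 295 (84.3%) were DEGs higher in Drakkar and 5 were higher in Duplo, and the median log2 fold change was -3.75. The summed level of the block was 6753.5, 7457.9 and 6645.0 CPM in the Drakkar libraries and 1306.0, 1311.8 and 1366.0 CPM in the Duplo libraries. The next 50 genes had a median of 0.08. *CDC48C* BnaC03g01160D, *MT2A* BnaC03g00710D, *FLC* BnaC03g04170D and *HSP17.6II* BnaC03g05240D lie in this block.

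The start of the matching chromosome A03, from BnaA03g00020D to BnaA03g04410D, differed in the opposite direction and by less. Of 300 tested genes 274 had a positive log2 fold change, 109 (36.3%) were DEGs higher in Duplo and 4 higher in Drakkar, and the median was 0.94. The block held between 5321.7 and 5546.8 CPM in Drakkar and between 9992.2 and 10352.7 CPM in Duplo, without overlap. Summed over both blocks, the libraries held between 12051.0 and 13004.7 CPM in Drakkar and between 11358.2 and 11658.7 CPM in Duplo, also without overlap. The C03 block held between 55.1% and 57.3% of that sum in Drakkar and between 11.2% and 12% in Duplo.

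Blocks towards the ends of chromosomes C05 and A05, each followed by bins with medians between -0.08 and 0.06, differed in the reverse directions. From BnaC05g46440D to BnaC05g48870D, 116 of 150 tested genes (77.3%) were DEGs higher in Duplo and 5 were higher in Drakkar, with a median log2 fold change of 3.89. The block summed to 614.1, 720.2 and 622.9 CPM in Drakkar and to 3746.0, 3808.4 and 3347.8 CPM in Duplo. From BnaA05g31970D to BnaA05g34140D, 138 of 150 tested genes had a negative log2 fold change, 30 (20%) were DEGs higher in Drakkar and 0 were higher in Duplo, with a median of -0.86. The C05 block held between 11.2% and 12.6% of the sum of both blocks in Drakkar and between 53.3% and 54.5% in Duplo. That sum was between 5209.9 and 5723.1 CPM in Drakkar and between 6251.5 and 7024.9 CPM in Duplo, without overlap. The block bounds of the full fit were kept when single libraries were left out. The medians then stayed between -3.86 and -3.69 for C03, 0.89 and 0.96 for A03, 3.85 and 3.95 for C05, and -0.88 and -0.83 for A05.

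**Figure D4:**
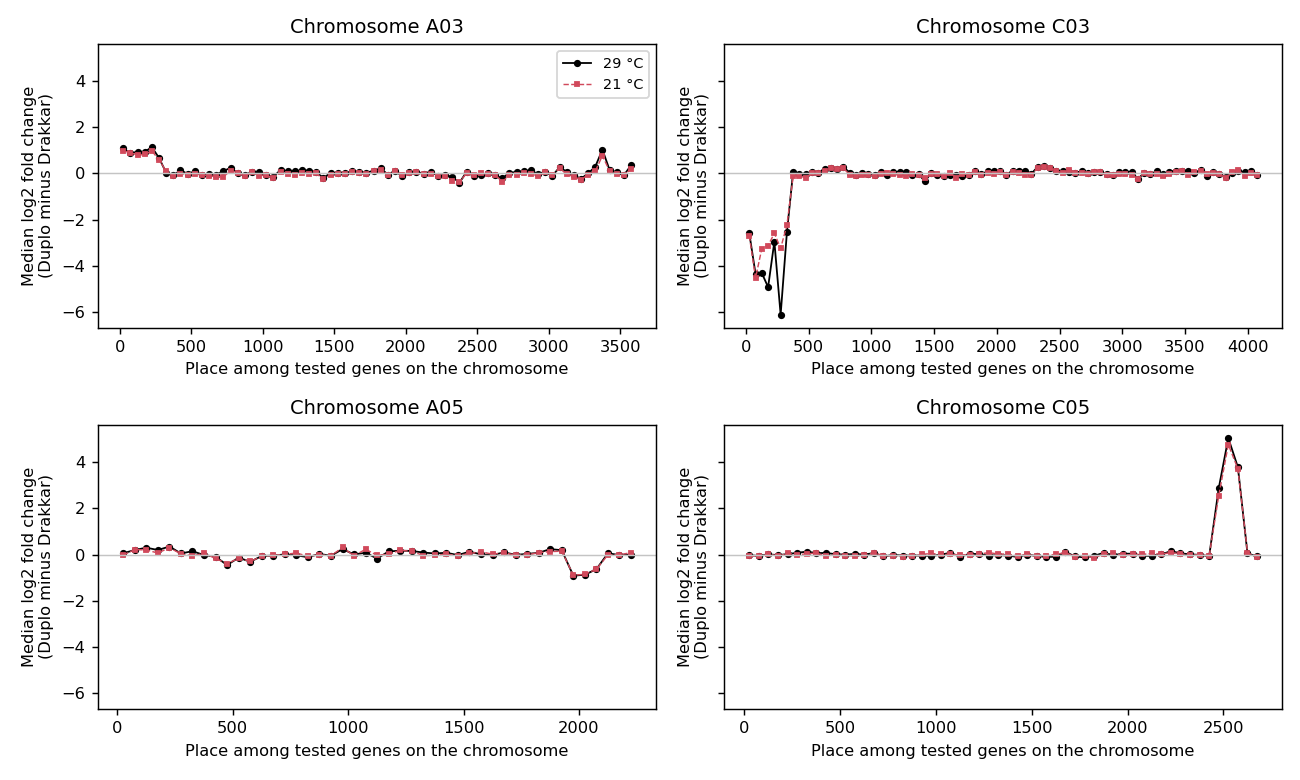
Median log2 fold change of Duplo minus Drakkar in bins of 50 consecutive tested genes (y axis) by place along chromosomes A03, C03, A05 and C05 (x axis), at 29 °C (black) and 21 °C (red). The first 7 bins of C03 lie between -6.11 and -2.55 and the first 6 of A03 between 0.67 and 1.14 at 29 °C, and the bins near the end of C05 and A05 deviate the other way.

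The 3 further blocks were shorter. BnaA10g25770D to BnaA10g27420D had a median of 1.00 over 100 genes, with 33 DEGs higher in Duplo, and its last gene was the first of the run of 10 genes detected in Drakkar only. BnaA03g55010D to BnaA03g55770D had a median of 1.03 and BnaC09g38780D to BnaC09g39660D a median of -0.61, each over 50 genes. Outside the blocks the subgenomes were similar, with 5.46% of A genes and 5.32% of C genes higher in Drakkar, and with 4.87% and 4.56% higher in Duplo. Chromosome C03 had 12.8% of its tested genes higher in Drakkar with its block and 6.12% without it.

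Most of the differences at 29 °C were also found between the varieties at 21 °C, in libraries that share no sample with the warm ones. At 21 °C, 6547 of 53043 genes tested (12.3%) were DEGs, 6.25% higher in Drakkar and 6.09% higher in Duplo. An unadjusted p-value under 0.05 was found for 32.1% of the genes there, and an adjusted one for 21.7%. The groups did not overlap for 37% of the genes and for 99.8% of the DEGs. Of the 5930 DEGs at 29 °C, 4526 (76.3%) were DEGs at 21 °C, which is 69.1% of the DEGs at 21 °C, and 4525 of them had the same direction. The exception was *CLC3* (BnaA04g05890D), for a clathrin light chain, with 3.13, 0.975 and 3 CPM in Drakkar and 0.361, 0.429 and 0.863 CPM in Duplo at 29 °C. Its log2 fold changes were -2.10 (adjusted p = 0.0466) at 29 °C and 1.44 (adjusted p = 0.0348) at 21 °C, and its interaction did not pass the test (adjusted p = 0.499). Of the 1404 DEGs at 29 °C only, 1106 were tested at 21 °C, and 1031 of those had the same sign there. The chromosome blocks were found at both temperatures, with medians at 21 °C of -2.98 for C03, 0.87 for A03, 3.71 for C05 and -0.84 for A05.

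**Figure D5:**
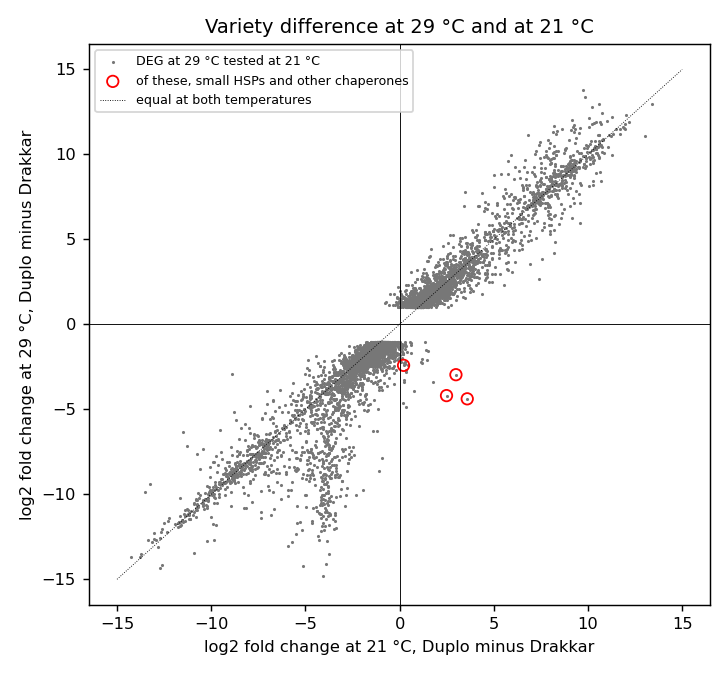
Log2 fold change of Duplo minus Drakkar at 29 °C (y axis) against that at 21 °C (x axis) for the 5632 DEGs at 29 °C that were tested at 21 °C, with the 4 of them that belong to the chaperone lists circled in red. Of the DEGs called at both temperatures, 4525 of 4526 lie on the same side of 0, and the circled loci lie below 0 at 29 °C and above 0 at 21 °C, where Duplo replicate 2 was their highest library (43.6 CPM of *HSP23.6-MITO* BnaA01g14560D against 0.628 and 0.395 CPM in the other Duplo libraries and at most 2.18 CPM in Drakkar). Genes far below the diagonal on the left had lower fold changes in size at 21 °C than at 29 °C.

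Of the 911 genes detected in Drakkar only, 514 (56.4%) met the same definition at 21 °C, and of the 634 genes detected in Duplo only, 485 (76.5%) did, and 0 met it in reverse. More than 3 reads were counted for 276, 25 and 199 of the 911 genes in Duplo 21 °C replicates 1, 2 and 3. Their summed level in these libraries was 4.92%, 0.35% and 2.33% of the Drakkar mean at 21 °C. For the genes detected in Duplo only, the Drakkar libraries at 21 °C held between 0.415% and 0.613% of the Duplo mean. These reads enter the fold changes at 21 °C and the interaction.

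The interaction of variety and temperature, fitted over all 12 libraries, tests whether the difference at 29 °C departs from that at 21 °C. No gene of 55227 passed with edgeR, where 3891 (7.05%) had an unadjusted p-value under 0.05, and 135 passed with DESeq2. Counts were simulated with the same spread for all genes and no library standing apart, and the changed genes were drawn from those with more reads. In these counts edgeR recovered 1 of 100 genes with a 2-fold interaction and 49 of 100 with a 4-fold one. Recovery among genes with few reads was not simulated. A lack of calls thus does not show that a difference was equal at both temperatures. Of the 135 genes, 101 had a negative interaction and 48 were genes detected in Drakkar only. Without Duplo 21 °C replicate 2 edgeR called 137 genes, of which 129 were negative, 92 were detected in Drakkar only and 5 belong to Cluster 2. Without Duplo 29 °C replicate 3 it also called 137, of which 79 were negative, 0 were detected in Drakkar only and 49 belong to Cluster 2. The lowest adjusted p-value in the full fit, 0.0926, was that of *SAC52* (BnaC08g39710D), whose log2 fold change was 8.18 at 21 °C and 5.54 at 29 °C. For the small heat-shock proteins all 21 loci had a negative interaction and 20 had an unadjusted p-value under 0.05, with a median of -6.87, against 3.78% of all genes with such a p-value and a negative interaction. These values rest on libraries that stand apart at both temperatures. The 21 loci all belong to Cluster 2, so that the share and direction of their interaction are not independent evidence. At 21 °C the Drakkar libraries summed to between 57.8 and 82.5 CPM of small heat-shock proteins, and the Duplo libraries to 36.3, 790.7 and 31.4 CPM. Without Duplo 21 °C replicate 2, the median of the interaction was -2.96 and 2 of the 21 loci had an unadjusted p-value under 0.05. *STE1* BnaC03g33040D had a log2 fold change of 0.02 at 21 °C against 1.42 at 29 °C, with an interaction of 1.39 (unadjusted p = 0.00124) that did not pass after adjustment.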

How the data were processed

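Root tips were sequenced as poly(A) RNA with a stranded TruSeq kit. The authors aligned reads with HISAT2 to the AST_PRJEB5043_v1 assembly and deposited raw counts per gene for each library. The counting program, its strand setting and its treatment of reads that match several copies are not given in the sources used here, so values of near-identical A and C copies are uncertain. The deposited tables also hold the authors' DESeq2 log2 fold changes and p-values between temperatures, which were not used. Between 0 and 2 reads per library had no gene name and were left out.

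Counts of the 6 libraries at 29 °C were fitted together in edgeR 4.0.16 (R 4.3.3, limma 3.58.1) with filterByExpr, TMM scaling and the quasi-likelihood test, with Benjamini-Hochberg adjustment over all genes tested. Standard errors (SE) were taken as the size of the fitted fold change over the root of the F statistic. The libraries at 21 °C were fitted in the same way, and all 12 for the interaction. DESeq2 1.42.0, other scalings and filters, robust estimation, a replicate block and fits without each library were alternatives. Bins and their blocks were added after the data were seen. Scripts were tested on simulated data. Tables were handled with Python 3.11.15, pandas 2.3.3, numpy 2.4.6 and scipy 1.17.1, and plotted with matplotlib 3.10.9.

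The members and gene lists were chosen with earlier results of these data known. Genes were named by rule as loci with primers in the study, the 10 highest and 10 lowest fold changes of non-overlapping annotated DEGs with a mean of at least 1 CPM, the 2 highest and 2 lowest among all genes, up to 12 DEGs of the heat-shock lists, the 5 annotated DEGs with the most reads in each direction, class B heat-shock factors and HB-3, and the ends of the 3 longest runs. Members of the lists named beyond these, *CLC3* and genes of the blocks were chosen after their values were seen. A lower bound of a fold takes 3 reads per library as the floor, and such bounds and the Wilson interval cover counting error only.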

Additional observations from a re-analysis of the deposited data

How the results depend on the processing

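The number of DEGs at 29 °C, 5930, was 3175 with at least 10 reads required in every library, between 4796 and 8174 with each library left out, and between 5285 and 6913 under the other alternatives that keep the fold threshold, DESeq2 (6447) among them. The share higher in Drakkar, 53.5%, was 57.7% with library totals and 49.9% with the stricter filter, and lay between 52.8% and 60.1% with libraries left out. Deviations from the variety mean correlated at 0.226, 0.0934 and 0.418 between libraries of the same replicate number, 0.418 being the highest of all pairs. Drakkar replicates 1 and 2 correlated more with Duplo replicates 2 (0.273) and 1 (0.103) than with their own numbers. Whether the numbers pair the libraries is thus not settled. A fit with the replicate number as a block had a lower common coefficient of variation (0.244 against 0.294) and gave 5772 DEGs. The interaction had 0 genes with edgeR, 135 with DESeq2 and between 0 and 137 with libraries left out. At 21 °C the DEGs were between 5805 and 6832 with libraries left out. The small heat-shock proteins had 17 DEGs with DESeq2, 1 with the stricter filter, 0 with robust estimation and between 0 and 20 with libraries left out, against 5. The other chaperones had 21, 2, 3 and between 0 and 23, and 11 without a filter, against 7. Genes detected in a single variety, 1545 in all, were 615 with at least 30 reads in every library of it and 0 in the other, and 1024 with at least 10 and 0. Runs numbered 31 from 3 genes and 1 from 10. Blocks numbered 36 with bins of 25 and 6 with bins of 100. Among genes that were not DEGs, the sign turned with library totals for *SCL33* (-0.00) and *ACT7* (-0.03), and with the block for *KMD1* (-0.69) and *HSFB2B* BnaC03g73070D (0.07). With libraries left out, the log2 fold change ranged from -1.42 to 0.29 for *XTR6*, -0.64 to 0.26 for *EXPA8*, -0.06 to 0.12 for *SCL33*, -3.85 to 2.67 for *KMD1*, -0.93 to 1.54 for *ACX2*, -0.06 to 0.19 for *ACT7*, -1.08 to 0.08 for *HB3*, -0.04 to 0.26 for *PYL4*, -1.10 to 0.03 for *HSF4* BnaC01g01790D and -0.67 to 0.12 for *HSFB2B* BnaC03g73070D.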
